A study of Mus musculus with 21 samples.

Results

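The comparison of lungs from saline-instilled mice that did or did not receive the lung carcinogen NNK rested on 12 of the 21 nCounter libraries of the series, 6 from saline + NNK mice and 6 from saline only mice. Members were the libraries whose group label names saline with or without NNK, and every gene of the panel was read in them. All were A/J mice of both sexes, 8 to 12 weeks old on arrival, with no engineered allele. Both groups received 50 µL of saline intranasally 3 times per week for 24 weeks and no dust extract (HDE, a filtered extract of dust from swine confinement barns). Saline + NNK mice received NNK intraperitoneally once, at 100 mg/kg at the start of week 4, and saline only mice received buffered saline by the same route. In a later experiment of the study, control mice also received a vehicle of ethanol in saline, given in place of a lipid mediator injected into the tail vein. Which of the 12 mice belonged to that experiment is not given. RNA came from part of the left lung, after the airways were lavaged and tumors were counted and excised. The counts thus describe lavaged lung tissue, and whether tumor tissue remained in it was not measured. Of the saline + NNK samples 3 came from females and 3 from males, and of the saline only samples 5 came from females and 1 from a male. The labels do not tie a library to a litter or cage. In the main fit, p-values and standard errors measure the spread between lungs over all 21 libraries, dust-exposed ones included.

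NNK is a nitrosamine of tobacco smoke that liver and lung enzymes turn into reactive species that alkylate DNA. A/J mice are an inbred strain prone to lung adenomas, and a single injection of NNK is a common way to start such tumors, which then grow over months. The panel counts immune and cancer transcripts by hybridisation of barcoded probes, without amplification. It covers the machinery that shows proteasome-cut peptides to T cells: the immunoproteasome subunits Psmb8, Psmb9 and Psmb10, the peptide transporter Tap1 and Tap2, and the MHC class I chains such as H2-D1. In most tissues interferons raise these genes together. DNA damage raises p53 targets such as Cdkn1a, an inhibitor of the cell cycle, and growth factor or stress signals raise the immediate-early genes Fos, Jun and Egr1 within minutes, in handled tissue too.

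The 12 libraries held 174604 to 524127 counts, with ranges of 309248 to 524127 in saline + NNK and 174604 to 493890 in saline only lungs. Markers of epithelium (Epcam, Cdh1, Muc1), endothelium (Pecam1, Cdh5, Kdr) and macrophages (Csf1r, Emr1, Cd68) lay above the background limit in 12 of 12 libraries, as lung tissue has them. That limit is the mean plus 2 SD of the negative control probes of each library. The libraries were counted in 2 instrument runs, as the codes in the column headers give them, and the groups were spread unevenly over these: run 1 held 4 saline + NNK and 2 saline only libraries, run 2 held 2 and 4. One saline only library of run 2 carried a quality mark of the instrument. The mean of the negative control probes was 19.6 to 27.25 raw counts in run 1 and 7.75 to 17.5 in run 2. On the log2 scale run 2 differed from run 1 by -0.79 (exact permutation test, two-sided, p = 0.0022). Genes of low count lie closest to this level, and its part in their differences between runs was not tested. The first principal component of the 388 genes tested held 39.8% of the variance and separated the runs completely, at 1.39 to 4.69 in run 1 and -4.93 to -0.81 in run 2 (exact permutation test, two-sided, p = 0.0022, the smallest the design allows, adjusted p = 0.0065 over 3 components). Between saline + NNK and saline only lungs the same component differed by 2.47, with overlapping scores (exact permutation test, two-sided, p = 0.22, adjusted p = 0.52). On components 2 and 3 the group differences were 0.60 and 1.01 (exact permutation test, two-sided, adjusted p = 0.62 and 0.52). In a fit with run as a term 110 of 388 genes (28.4%) passed an adjusted p of 0.05 between the runs, so values within the runs, or with run as a term, stand beside the results that moved with it. The headers of the counts carry no sample names, so no library was assigned a sex, but run and sex overlapped. In the table that names the samples Fos was 720 in the saline only male and 593 to 868 in the saline + NNK males, within the range of run 1 (577 to 1314) and above that of run 2 (133 to 289). In the same table Fos was 133 to 577 in saline only females and 174 to 1314 in saline + NNK females, values that span both runs. Run and sex thus overlapped only in part. Differences between the runs, and values with run as a term, were still not separated from sex.

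**Figure D1:**
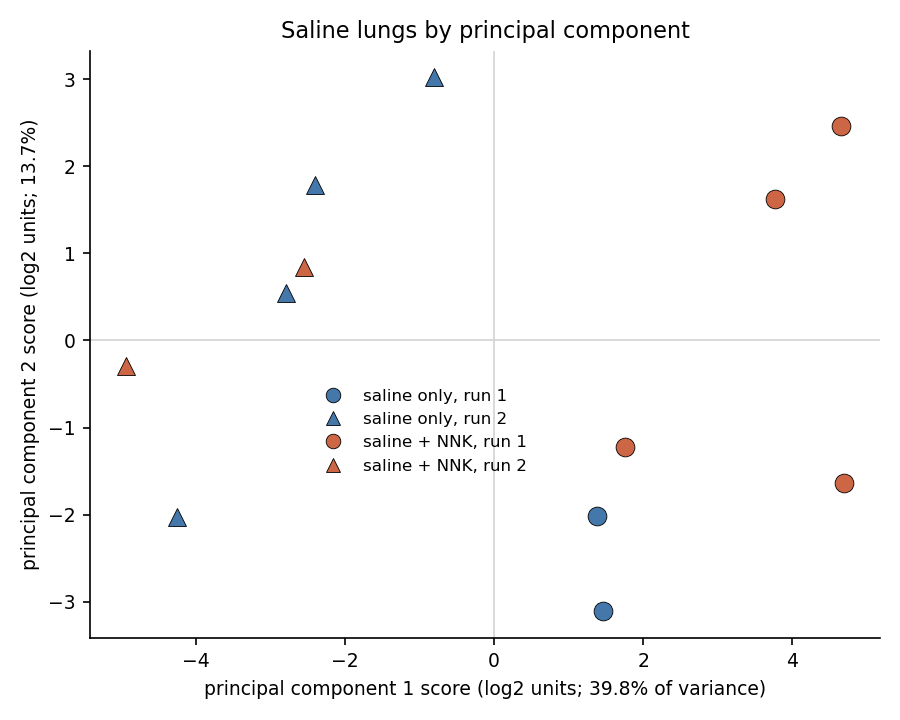
Scores of the 12 saline lungs on principal components 1 and 2 (log2 units) of 388 genes; circles are run 1 and triangles run 2, blue is saline only and orange saline + NNK. Run 1 lies between 1.39 and 4.69 and run 2 between -4.93 and -0.81 on component 1, while both groups lie on both sides of 0.

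No gene passed the adjusted threshold between saline + NNK and saline only lungs: 0 of 388 genes tested (0%) in the quasi-likelihood fit of edgeR, in which the Benjamini-Hochberg adjusted p was 0.997 for every gene. Values after ± are standard errors (SE) of that fit, or of the fit named beside them. At an unadjusted p of 0.05 or less, which is the study's own threshold, 4 genes passed (1.03%), and DESeq2 and limma gave 0 adjusted and 11 and 2 unadjusted. The 4 genes were Tap1, Psmb9, H2-D1 and Egr1, all with the higher level after NNK. Leaving out 1 library at a time gave 0 adjusted calls in each fit and 0 to 20 unadjusted ones, with 0 without the saline + NNK library of run 1 lane 4 or the saline only library of run 2 lane 6, and 20 without the saline + NNK library of run 2 lane 1. For no gene did the 6 values of one group lie wholly outside those of the other. Of the 388 log2 fold changes 267 were above 0 and 121 below, with a median of 0.06, and TMM scaling gave 197 above 0 and a median of 0.00, so the excess above 0 depends on the scaling. The log2 fold changes ran from -0.30 (Trem2) to 0.83 (Fos), and their standard errors had a median of 0.16.

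The precision bounds what the comparison could have missed. The 95% interval of the fold change lay within 2-fold in either direction for 378 of the 388 genes, and within 1.5-fold for 288. The 10 whose interval reached 2-fold were Ccl8, Chil3, Ciita, Col4a1, Cxcl13, Egr1, Fos, Nfkbia, Tap2 and Trem2. These intervals hold for the 4-gene scaling and the fit without run, and with scaling by the positive control probes single estimates passed 2-fold (Tap1 at 1.01 and Psmb9 at 1.02 on the log2 scale), with a median of 0.55 over all genes. As a scale for the same saline only libraries, HDE only against saline only lungs gave 134 genes past the adjusted threshold (34.5%) in the same fit.

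Of the 10 genes with the smallest p in the higher direction 5 were genes of antigen presentation (Tap1, Psmb9, H2-D1, Cd74 and H2-T23). The other 5 were Egr1, Herc6, Nfkbia, Mapkapk2 and Ccl8. The class I and class II lists held 15 and 10 of the 388 genes tested. The 10 were ranked by p in a fit where no gene passed the adjusted threshold, and an excess of these lists was not tested. Tap1, which carries peptides into the endoplasmic reticulum, measured 123, 146 and 200 normalized counts (lowest, median, highest) in saline only lungs and 124, 214 and 266 in saline + NNK lungs. Of the saline + NNK lungs 3 lay above every saline only lung, and all 3 were in run 1. The log2 fold change was 0.47 ± 0.20 (SE; 95% interval 0.05 to 0.89), and with run as a term it was 0.31 ± 0.19. Psmb9, an interferon-inducible catalytic subunit of the immunoproteasome, measured 179, 275 and 398 normalized counts without NNK and 250, 405 and 548 with it. Again 3 saline + NNK lungs, all of run 1, lay above all saline only lungs, while both run 2 lungs with NNK lay below the saline only median. Its log2 fold change was 0.48 ± 0.21 (SE), or 0.29 ± 0.20 with run as a term. H2-D1, a classical MHC class I heavy chain, measured 4045, 4320 and 5118 normalized counts without NNK and 4396, 5280 and 6455 with it, a log2 fold change of 0.28 ± 0.13 (SE) and of 0.19 ± 0.12 with run as a term. The highest saline only value, 5118 against 4367 for the next, was that of a run 2 lung (lane 5) that was also the highest of its group for Tap1 and Psmb9. Class I genes are near-identical copies of each other, and A/J carries other alleles than the reference the probes were designed on, so the split of counts between H2-D1 and its relatives is uncertain.

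Tap1 and Psmb9 stand head to head on chromosome 17, with 225 bases between their start sites, and H2-D1 lies in the same MHC region. The upstream sequences are shown because these 3 genes had the smallest p and shared the pattern over libraries, and they come from RefSeq (GRCm38.p6, the C57BL/6J reference, not A/J). The first is chr17:34187331-34187555 on the plus strand, which runs from the base before Psmb9 to the base before Tap1, and the second is chr17:35262844-35263093, the 250 bases before H2-D1 on the plus strand. Capitals mark matches to the GC box CCCCGCCCC, to CCAATCAG (the Y box of MHC promoters) to the kB core GGGATTCCC and to the interferon response core TTTCNNTTC, searched on both strands. The last was set in this form after the H2-D1 sequence had been read.
Tap1-Psmb9: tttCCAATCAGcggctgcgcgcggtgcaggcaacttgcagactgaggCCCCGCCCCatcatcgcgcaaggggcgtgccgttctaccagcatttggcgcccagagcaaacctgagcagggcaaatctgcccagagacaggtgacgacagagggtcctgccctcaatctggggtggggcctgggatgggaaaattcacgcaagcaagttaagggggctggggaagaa
H2-D1: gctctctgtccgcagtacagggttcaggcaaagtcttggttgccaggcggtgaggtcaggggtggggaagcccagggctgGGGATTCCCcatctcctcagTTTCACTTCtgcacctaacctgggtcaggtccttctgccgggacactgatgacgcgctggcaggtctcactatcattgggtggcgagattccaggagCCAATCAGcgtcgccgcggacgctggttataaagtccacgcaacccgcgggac
The Tap1-Psmb9 interval held 1 GC box, 178 bases before Tap1, and 1 CCAATCAG, 222 bases before Tap1. H2-D1 held the kB core 170 bases, the interferon response core 150 bases and CCAATCAG 53 bases before its start. Among 32851 upstream windows of 250 bases in the same table, 10.4% held the GC box, 3.83% CCAATCAG, 0.301% GGGATTCCC and 6.31% TTTCNNTTC. These matches describe letters only and no binding was measured.

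**Figure D2:**
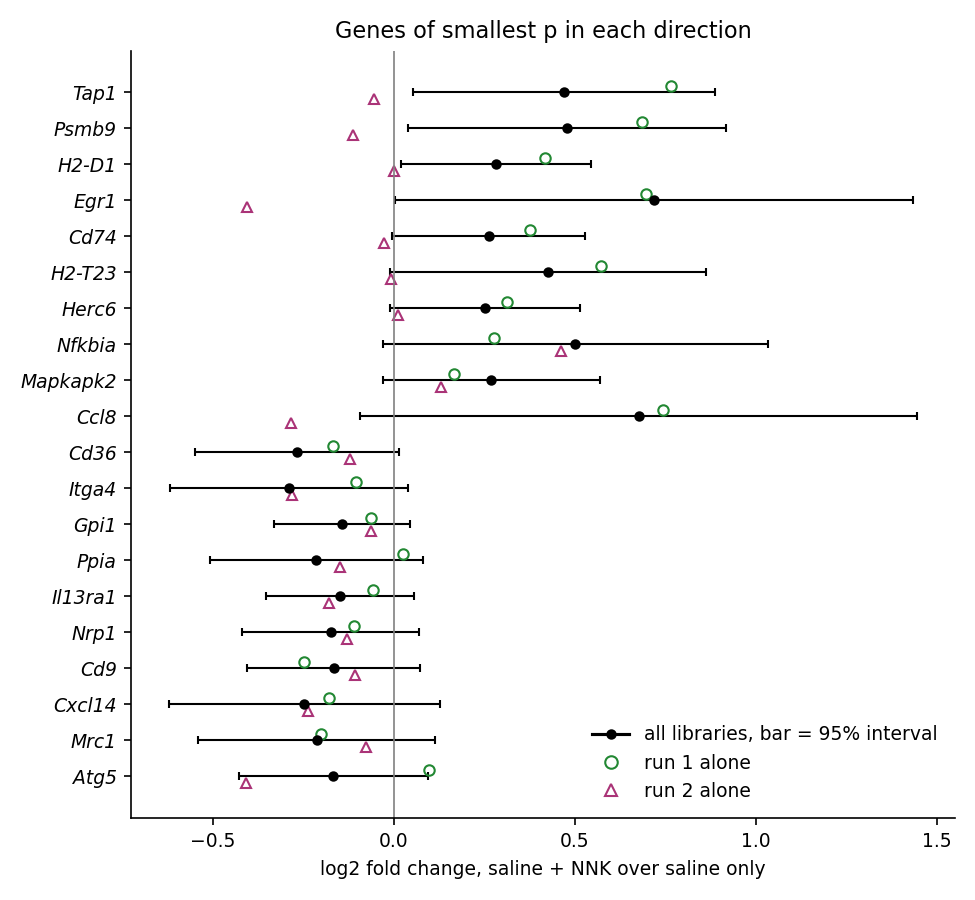
Log2 fold changes of saline + NNK over saline only for the 10 genes of smallest p in each direction (black points with 95% intervals, 21-library fit; green circles run 1 alone, purple triangles run 2 alone). The intervals of Tap1, Psmb9, H2-D1 and Egr1 lie just above 0, and for Egr1 run 1 gives 0.70 and run 2 -0.41.

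Of the 21 genes of MHC class I and antigen processing on the panel 15 were tested, 13 of them above 0, with a median log2 fold change of 0.17 against 0.06 over all genes. Tap1, Psmb9 and H2-D1 passed the unadjusted threshold and the others did not. The third immunoproteasome subunit, Psmb8, had a log2 fold change of 0.26 ± 0.16, and Psmb7, which the constitutive proteasome uses in place of Psmb10, had 0.00 ± 0.11. H2-T23, the mouse Qa-1 chain that engages inhibitory receptors on NK cells, measured 107, 146 and 163 normalized counts without NNK and 123, 194 and 244 with it. Its 4 saline + NNK values above all saline only values were those of run 1, and the log2 fold change was 0.43 ± 0.21 (SE). H2-K1, a second classical class I chain, had 0.16 ± 0.13, with 5 of 6 saline + NNK values inside the saline only range.

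The MHC class II list, which covers genes of professional antigen-presenting cells, had 10 of 12 members tested and all 10 above 0, with a median log2 fold change of 0.16 and none past the unadjusted threshold. Cd74, the invariant chain that guards the class II groove, measured 6151, 7444 and 9179 normalized counts without NNK and 7254, 8811 and 11726 with it, a log2 fold change of 0.26 ± 0.13 (SE). For Cd74 this was 0.16 with run as a term, 0.38 in run 1 alone and -0.028 in run 2 alone. H2-Aa, a chain of the class II molecule itself, had 0.04 ± 0.15, and Ciita, the master activator of class II transcription, had 0.41 ± 0.33 at 28.0 to 119 normalized counts. With TMM scaling the list's median was 0.10, with 8 of 10 above 0. Among the 37 interferon-stimulated genes 24 were tested, 20 of them above 0 with a median log2 fold change of 0.17, and none passed the unadjusted threshold. Herc6, an interferon-induced ligase, measured 75.2, 80.3 and 93.8 normalized counts without NNK and 81.0, 100 and 118 with it. The 4 run 1 lungs with NNK lay above all saline only lungs and the 2 run 2 lungs with NNK did not (log2 fold change 0.25 ± 0.13 SE).

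In run 1 alone, with 4 saline + NNK and 2 saline only lungs, 0 of 388 genes passed the adjusted threshold (0%) and 22 passed the unadjusted one (5.67%), all 22 higher after NNK. Most were interferon or antigen presentation genes: 8 of the 24 interferon-stimulated, 5 of the 15 class I and 4 of the 10 class II genes tested. Gbp2b is a guanylate-binding protein that acts against intracellular microbes. In run 1 it measured 251 and 269 normalized counts without NNK and 415, 474, 479 and 523 with it (log2 fold change 0.86 ± 0.21, adjusted p = 0.196 in the fit of run 1). In run 2 it measured 229, 297, 328 and 633 without NNK and 189 and 274 with it (log2 fold change -0.69 ± 0.38). The single value of 633 belongs to the saline only lung of run 2 with the highest H2-D1, Tap1 and Psmb9 of its group. Cd274, which encodes the checkpoint ligand PD-L1 and is induced by interferon, measured 195 and 201 normalized counts without NNK and 274, 286, 320 and 321 with it in run 1 (log2 fold change 0.60, adjusted p = 0.089). In run 2 it measured 161, 205, 229 and 315 without NNK and 182 and 193 with it (log2 fold change -0.29 ± 0.34).

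**Figure D3:**
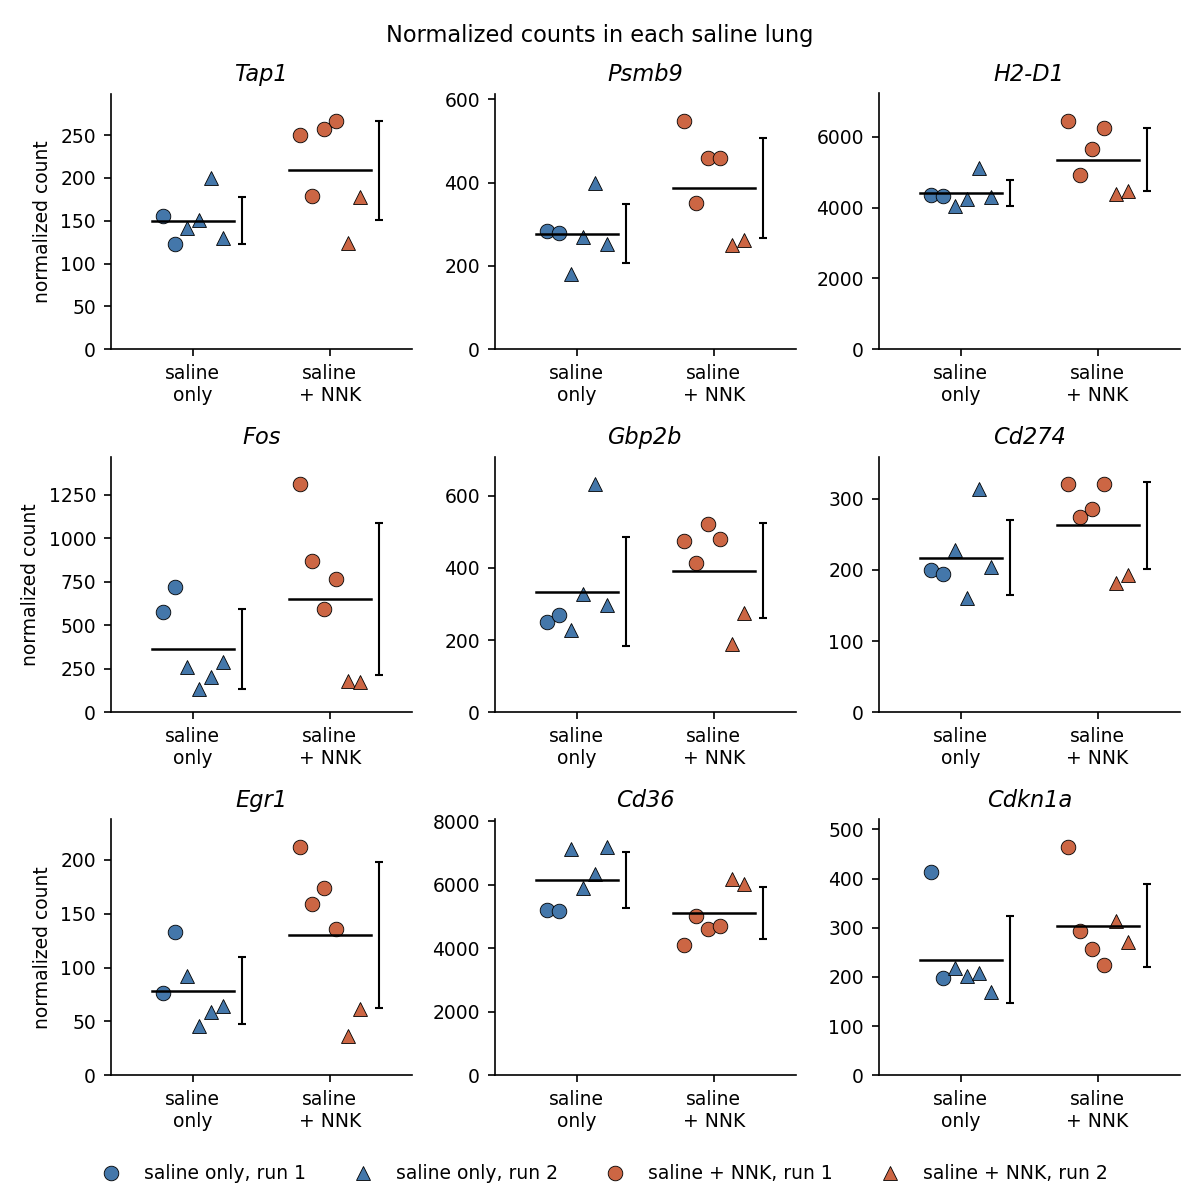
Normalized counts (vertical axes, linear from 0) of 9 genes in each saline lung; circles are run 1, triangles run 2, horizontal lines the mean of 6 lungs and vertical bars its SD. For Tap1, Psmb9 and H2-D1 the highest 3 values are saline + NNK lungs of run 1, and the 2 saline + NNK lungs of run 2 lie within or below the saline only range for Gbp2b and Cd274.

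In run 2 alone 0 of 388 genes passed the adjusted threshold (0%) and 5 passed the unadjusted one (1.29%): Cdkn1a, Fas and Egfr higher (0.773% of genes tested), and Cd83 and Atg5 lower after NNK (0.515%). None of these 5 was among the 22 of run 1. Of those 22 genes 3 were above 0 in run 2, where their median log2 fold change was -0.19 against 0.58 in run 1, the run that chose them. Over all 388 genes, 119 were above 0 in both runs, 59 below 0 in both, 157 above 0 in run 1 and below in run 2, and 53 the reverse. The difference between the runs was tested directly, a test chosen after the data were seen, over the 12 saline libraries. It gave 0 adjusted calls (0%) and 36 unadjusted ones (9.28%), 34 of them (8.76%) toward a higher NNK difference in run 1, with a lowest adjusted p of 0.324. Cd83, an activation marker of dendritic and B cells, had the smallest p in that test, with a difference of 1.05 ± 0.27 on the log2 scale, and Gbp2b had 1.56 ± 0.44.

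**Figure D4:**
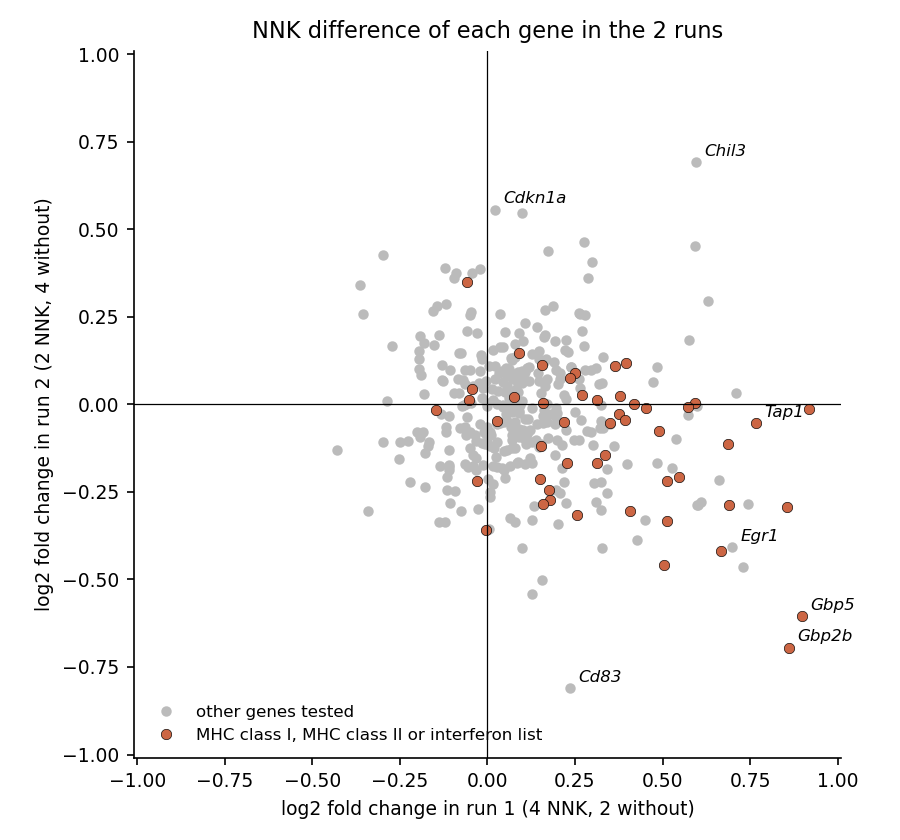
Log2 fold change of saline + NNK over saline only for each of 388 genes in run 1 (horizontal) and run 2 (vertical); orange points are the 49 tested genes of the class I, class II and interferon lists. Most orange points lie right of 0, and the guanylate-binding proteins Gbp2b and Gbp5 lie at 0.86 and 0.90 in run 1 and at -0.69 and -0.61 in run 2.

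The same held for whole lists. The class I list had a median log2 fold change of 0.36 in run 1 (12 of 15 above 0) and of -0.05 in run 2 (5 of 15). For class II the medians were 0.39 (9 of 10) and -0.25 (1 of 10), and for interferon-stimulated genes 0.28 (22 of 24) and -0.05 (10 of 24). Over all genes tested the medians were 0.09 (276 of 388) and -0.02 (172 of 388). With run as a term the class I, class II and interferon medians were 0.11, 0.07 and 0.11, against 0.01 over all genes, and 0 genes passed the unadjusted threshold. The study describes a first and a later experiment, the later one with vehicle injections in control mice. Whether these are the 2 runs is not given in the sources used here.

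**Figure D5:**
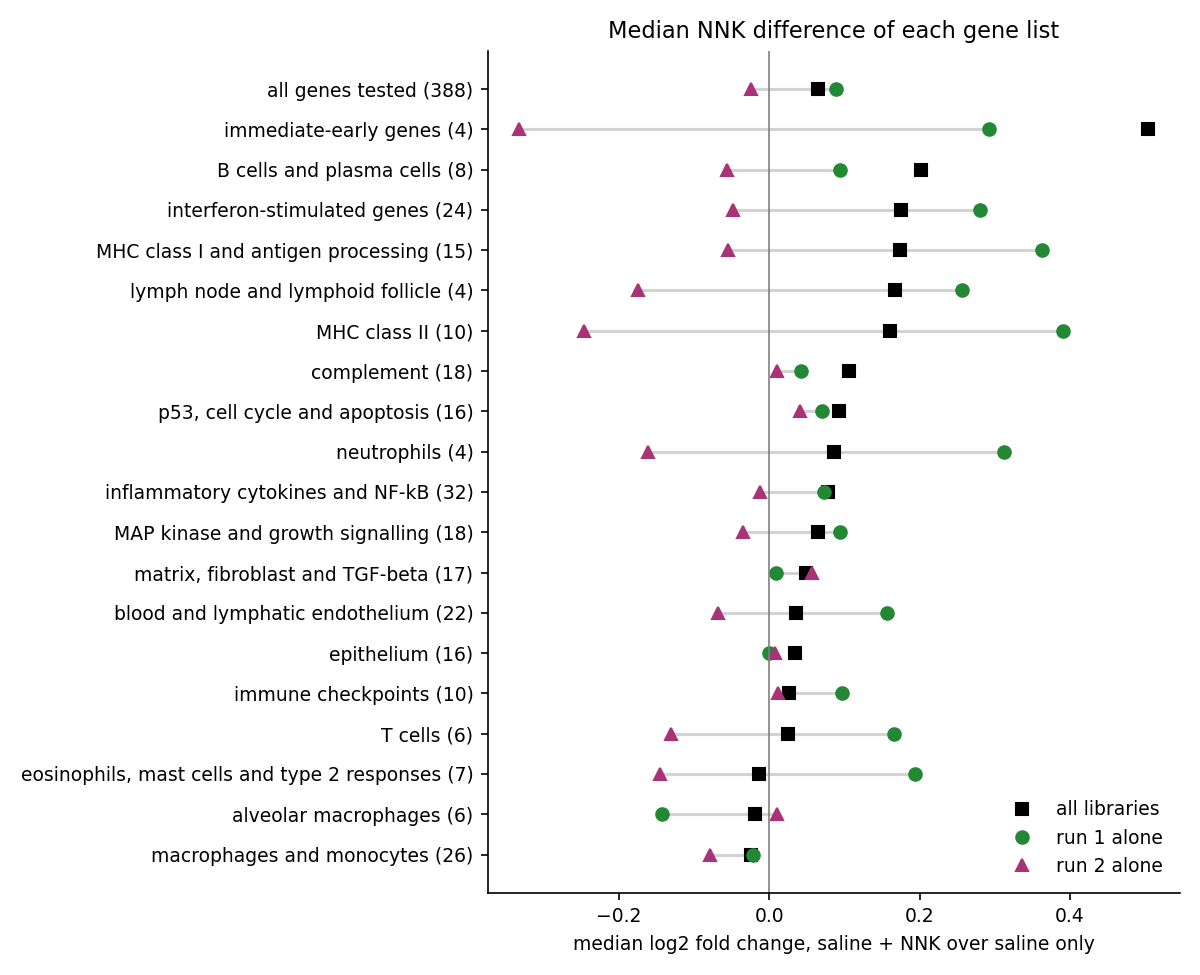
Median log2 fold change of saline + NNK over saline only for each gene list with 4 or more genes tested (number tested in parentheses), in all libraries (squares), run 1 alone (circles) and run 2 alone (triangles). The class II list lies at 0.39 in run 1 and -0.25 in run 2, and the immediate-early list at 0.29 and -0.33.

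The immediate-early list had the largest median of the lists in the pooled fit, and its genes also differed between the runs. Egr1, a transcription factor of the growth and stress response, measured 45.7, 70.5 and 133 normalized counts without NNK and 36.6, 147 and 212 with it, a log2 fold change of 0.72 ± 0.35 (SE). All 4 saline + NNK lungs of run 1 lay above all saline only lungs, and a saline + NNK lung of run 2 had the lowest value of the 12. Run 2 against run 1 differed by -1.07 on the log2 scale for Egr1 (adjusted p = 6.5e-04 in edgeR's quasi-likelihood test), and the NNK difference with run as a term was 0.26 ± 0.25. Fos, which pairs with Jun in the AP-1 factor, measured 133, 275 and 720 normalized counts without NNK and 174, 681 and 1314 with it. Every run 1 lung of either group (577 to 1314) lay above every run 2 lung (133 to 289). Its NNK log2 fold change of 0.83 ± 0.53 (SE) was 0.07 ± 0.26 with run as a term. Of the 4 genes tested 3 were above 0 in the pooled fit, with a median of 0.50, and 0 of 4 in run 2. Myc had -0.02 ± 0.30 in the pooled fit, and its -0.35 ± 0.18 with run as a term carried the smallest p of that fit (adjusted p = 0.987).

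Genes of growth signalling and of the DNA damage response, those closest to the known action of NNK, gave no adjusted or unadjusted call in the pooled fit. In run 2 alone Egfr, Cdkn1a and Fas passed the unadjusted threshold, 3 of 388 genes tested (0.773%). In run 1 alone 0 genes of these lists did. Of 26 genes of MAP kinase and growth signalling 18 were tested, 16 of them above 0 with a median log2 fold change of 0.07 against 0.06 over all genes. Egfr, the epidermal growth factor receptor, measured 103, 120 and 148 normalized counts without NNK and 127, 146 and 183 with it (log2 fold change 0.34 ± 0.22), and 3 saline + NNK lungs lay above all saline only lungs. Mapkapk2, a kinase downstream of p38, had 0.27 ± 0.14, at 0.17 in run 1 and 0.13 in run 2, and Mapk3 (ERK1), the most abundant of the list, had 0.02 ± 0.12. Of 25 genes of p53, cell cycle and apoptosis 16 were tested, 13 above 0, with a median of 0.09. Cdkn1a measured 169, 205 and 413 normalized counts without NNK and 224, 282 and 464 with it, with 5 of 6 saline + NNK values inside the saline only range. The highest saline only value lay apart from the others, which were at or below 219. The log2 fold change was 0.37 ± 0.25 (SE), at 0.02 in run 1 and 0.56 ± 0.16 in run 2 (adjusted p = 0.998). Fas, a death receptor and p53 target, had 0.32 ± 0.23, at 0.59 in run 1 and 0.45 in run 2, and Trp53 itself had 0.21 ± 0.34.

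In the lower direction no gene passed the unadjusted threshold. Cd36, the fatty acid and oxidised lipid receptor of macrophages and capillary endothelium, had the smallest p. It measured 5168, 6108 and 7192 normalized counts without NNK and 4109, 4868 and 6176 with it. The 4 run 1 lungs with NNK were below every saline only lung, and the 2 of run 2 lay within the saline only range (log2 fold change -0.27 ± 0.14 SE). Within the runs it was -0.17 and -0.12. Itga4, the integrin chain that brings lymphocytes and monocytes to inflamed vessels, measured 79.3, 91.3 and 118 normalized counts without NNK and 62.0, 77.0 and 98.1 with it (log2 fold change -0.29 ± 0.16). Gpi1 and Ppia, metabolic and chaperone genes that the panel carries as housekeeping probes but that did not enter the scaling, had -0.14 ± 0.09 and -0.21 ± 0.14. Il13ra1, Nrp1, Cd9, Cxcl14, Mrc1 and Atg5 completed the 10 of smallest p, between -0.25 and -0.15.

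The macrophage and monocyte list was the largest of the cell type lists, with 26 of 35 genes tested, 11 above 0 and 15 below, and a median log2 fold change of -0.02. Mrc1, the mannose receptor of resident macrophages, measured 454, 551 and 833 normalized counts without NNK and 455, 485 and 630 with it, with overlapping groups (log2 fold change -0.21 ± 0.16). Spp1 (osteopontin), a secreted protein of macrophages and epithelium, measured 729, 834 and 878 without NNK and 657, 691 and 798 with it. The 4 saline + NNK lungs of run 1 were the lowest of the 12 (log2 fold change -0.22 ± 0.18). Chil3, a chitinase-like protein of alveolar macrophages, varied more than 3-fold within both groups, at 1149, 1436 and 3900 normalized counts without NNK and 1162, 1844 and 4625 with it. High values occurred in both groups and in both runs, and the interval of its log2 fold change of 0.46 ran from -0.46 to 1.38. Marco, a scavenger receptor of the same cells, had 0.11 ± 0.27. Because the libraries are bulk RNA, fewer cells of a type and less RNA per cell cannot be told apart.

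Of 26 genes of B cells and plasma cells 8 were tested, 7 above 0, with a median log2 fold change of 0.20 that was 0.04 with run as a term. Cd79b, a signalling chain of the B cell receptor, measured 86.3, 111 and 149 normalized counts without NNK and 84.1, 163 and 212 with it (log2 fold change 0.40 ± 0.23). Ms4a1 (CD20) measured 72.8, 95.4 and 100 without NNK and 47.4, 114 and 180 with it (log2 fold change 0.35 ± 0.30), with 5 saline + NNK lungs above all saline only lungs and 1 below them all. The highest Cd79b, the highest Ms4a1 and the highest Cd74 fell in the same saline + NNK lung of run 1, and the part of B cells in the class II values was not tested. Among lymphotoxin and follicle genes Ltb had 0.17 ± 0.22, Cxcl13 0.32 ± 0.35 and Ccl21a -0.04 ± 0.10.

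The remaining lists lay close to the median over all genes. T cell, NK cell and neutrophil lists had 6, 2 and 4 genes tested, with median log2 fold changes of 0.03, 0.13 and 0.09 and no unadjusted call. S100a8, a calcium-binding protein of neutrophils, measured 224, 310 and 665 normalized counts without NNK and 254, 307 and 547 with it (log2 fold change 0.03 ± 0.25). The highest saline only value was that of the library with the instrument's quality mark. Complement had 13 of 18 genes above 0 with a median of 0.11, led by C1qb at 0.33 ± 0.18, C4b at 0.23 ± 0.14 and C1qa at 0.28 ± 0.18, which belong to the classical pathway and, for C1q, are made by tissue macrophages. C4b measured 382, 436 and 508 normalized counts without NNK and 464, 522 and 590 with it, with 3 saline + NNK lungs above all saline only lungs. Inflammatory cytokines and NF-kB had 23 of 32 above 0 with a median of 0.08. Nfkbia, the inhibitor that NF-kB induces against itself, measured 97.1, 127 and 174 normalized counts without NNK and 104, 216 and 226 with it (log2 fold change 0.50 ± 0.26 SE, and 0.30 with run as a term). Cxcl15 (lungkine), a chemokine of airway epithelium, measured 15451 to 24214 without NNK and 13447 to 29489 with it and had 0.19 ± 0.22.

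Structural lists had medians of 0.03 for epithelium (11 of 16 above 0), 0.04 for blood and lymphatic endothelium (16 of 22) and 0.05 for matrix, fibroblast and TGF-beta genes (10 of 17). Col3a1, a fibrillar collagen, measured 533, 654 and 1042 normalized counts without NNK and 546, 988 and 1056 with it (log2 fold change 0.34 ± 0.25). The 4 saline + NNK lungs of run 1 (982 to 1056) and 1 saline only lung of run 1 (1042) were the highest, and with run as a term the log2 fold change was 0.06 ± 0.16. Ccl8, a chemokine that recruits monocytes and, in mice, type 2 T cells, measured 29.6, 87.6 and 121 without NNK and 42.8, 160 and 201 with it. Its 4 highest values were the saline + NNK lungs of run 1, and the log2 fold change was 0.68 ± 0.37 (SE), at -0.28 in run 2. Checkpoint genes had a median of 0.03 over 10 genes tested, with Tnfrsf14 at 0.41 ± 0.27 and Entpd1 at 0.20 ± 0.14, and eosinophil, mast cell and type 2 genes had -0.01 over 7.

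The genes that set the scale and those too low to test bound the picture at both ends. Of the 4 scaling genes Sdha, Rpl19, Oaz1 and Eef1g, the geometric mean was 715 to 2086 counts without NNK and 1243 to 2283 with it (exact permutation test, two-sided, p = 0.21). The 378 genes left out of the test averaged fewer than 87 counts over the 21 libraries, and 65 of those reached 87 raw counts in 1 or more saline libraries. Nlrc5, the activator of class I transcription, measured 39.2, 41.1, 42.9, 52.0, 61.8 and 115 normalized counts without NNK and 38.7, 67.8, 83.6, 98.1, 113 and 116 with it. The highest saline only value was the run 2 lung that was also highest for Gbp2b. Cxcl9, an interferon-gamma induced chemokine, measured 14.8 to 50.2 without NNK and 12.4 to 105 with it, and the 2 saline + NNK lungs of run 2 were at 12.4 and 17.3. Values this low lie near the background limit of the negative control probes. Dmbt1, Tlr7 and Cxcl5 measured 9.87 to 98.8, 31.0 to 93.9 and 21.4 to 47.4 without NNK and 24.8 to 48.2, 39.9 to 93.1 and 10.3 to 74.6 with it. Of the markers of dividing cells, Birc5 lay above the background limit in 4 of 12 libraries and Cdk1 in 0. Of cytotoxic granule genes, Prf1 did so in 1 and Gzma in 12 (40.1 to 169 normalized counts). Of mast cell markers, Ms4a2 and Fcer1a did so in 0 and Kit in 12 (88.0 to 142).

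Whether NNK acted differently in dust-exposed lungs was tested as the NNK difference in HDE lungs minus that in saline lungs. It gave 0 adjusted calls of 388 (0%) and 4 unadjusted ones (1.03%), H2-Ab1, H2-T23, Herc6 and Itga6. H2-T23 and Herc6 had 0.43 and 0.25 in saline lungs and -0.28 and -0.23 in HDE lungs on the log2 scale, differences of -0.71 ± 0.32 and -0.48 ± 0.20. HDE + NNK against HDE only lungs gave 0 adjusted calls (0%) and 8 unadjusted ones (2.06%). Sex is given by name only in the table that names the samples, in which values under 87 counts were raised to 87. Without a sex term that table gave 0 adjusted calls and 4 unadjusted ones (1.03%), and Egr1 had a log2 fold change of 0.40 in it, against 0.72 in the raw counts. With sex as a term that table gave 0 adjusted calls and 1 unadjusted one (0.258%), Tap1 at a log2 fold change of 0.43. Among females alone (3 with NNK, 5 without) it gave 0 adjusted calls and 8 unadjusted ones (2.06%), and neither Tap1 (0.23), Psmb9 (0.34), H2-D1 (0.21) nor Egr1 (0.20) was among them. By the Fos values given for the males, the comparison of females leans on run 2.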

How the data were processed

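RNA (50 ng) from left lung was hybridised for 16 h to the mouse PanCancer Immune panel, 784 probes with 750 endogenous, 20 housekeeping, 8 negative and 6 positive ones. The deposited table holds raw counts per probe and library, and a second deposited table holds the counts named by sample, in which the authors raised values under 87 to 87. Counts were divided by the geometric mean of 4 genes (Sdha, Rpl19, Oaz1 and Eef1g) and set to a common scale, here called normalized counts. Genes with a mean of at least 87 counts over 21 libraries, 388 of 766, were fitted with edgeR 4.0.16 (R 4.3.3; quasi-likelihood, robust, 4 group means), with Benjamini-Hochberg adjustment at 0.05. limma 3.58.1 (log2 of normalized count plus 1 or 20) and DESeq2 1.42.0 were alternatives. An exact permutation test over 924 relabellings served the component scores, the scaling mean and the means of the control probes. Columns of the counts name a group but no sample. Genes named are the 10 of smallest p in each direction, up to 3 of smallest p and the most abundant of each of 20 lists, the scaling genes, the 5 most variable tested genes, 5 under the minimum and markers, while Cd83, Col4a1, Gbp5, H2-Aa, H2-Ab1, H2-K1, Itga6, Myc, Psmb7, Psmb8, Psmb10, Tap2, Trem2 and Trp53 were chosen after their values were seen. Members and lists were chosen with earlier results of these data known. Symbols matched RefSeq for 382 of 388 genes, and figures were drawn with matplotlib.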

Additional observations from a re-analysis of the deposited data

Results flagged for a closer look

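Of 64 groups of 6 values tested for a value that stands apart by Dixon's criterion, 6 had one. Chance flags about 1 in 20 groups of genes chosen without regard to their values, and that rate does not hold here. Chil3, Gbp2b, Ccl5 and S100a8 were named because their highest library stood far above the median of a saline group. H2-D1 was 5118 normalized counts in the saline only library of run 2 lane 5, against 4045 to 4367 in the others. In the same library Gbp2b was 633, against 229 to 328. Chil3 was 3900 normalized counts in the saline only library of run 2 lane 4, against 1149 to 2100. S100a8 was 665 in the saline only library of run 2 lane 3, the one with the instrument's quality mark, against 224 to 364. Ccl5 was 68.6 normalized counts in the saline + NNK library of run 2 lane 1, against 146 to 180. The same library held 524127 total counts, against 309248 to 386731 in the other saline + NNK libraries.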

How the results depend on the processing

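No alternative gave an adjusted call between saline + NNK and saline only lungs. The 4 unadjusted genes became 8 with all housekeeping genes, 82 with positive control probes, 11 with DESeq2, 2 with limma at either pseudocount, 7 after background subtraction, 2 with at least 87 counts in each saline library, 7 with a mean of at least 20, 8 with no filter, 18 in the 12 saline libraries alone, 0 with run as a term, 22 in run 1, 1 with sex as a term and 8 in females, and 0 to 20 without 1 library. The median log2 fold change of all tested genes, 0.06, was 0.55 with positive control probes, -0.0086 with DESeq2, -0.023 in run 2 and -0.011 in females (0.03 to 0.09 without 1 library). With positive control probes the 10 lower genes turned: Cd36 0.23, Itga4 0.24, Gpi1 0.37, Ppia 0.29, Il13ra1 0.34, Nrp1 0.32, Cd9 0.32, Cxcl14 0.31, Mrc1 0.28 and Atg5 0.37, and the raw counts of those probes differed by -0.22 on the log2 scale where those of the 4 scaling genes differed by 0.34 (exact permutation test, two-sided, p = 0.42 and 0.21). Run 1 turned Ppia (0.026) and Atg5 (0.10), and run 2 turned Tap1 (-0.054), Psmb9 (-0.11), Egr1 (-0.41), Cd74 (-0.028), H2-T23 (-0.0084) and Ccl8 (-0.28). Herc6 was -0.018 with sex as a term and -0.12 in females. Both values came from the counts raised to 87, in which Herc6 was 0.027 without a sex term. Component 2 ran from -0.32 to 1.47 without 1 library. The scaling gene mean ran from 0.19 to 0.50 and the test between runs gave 18 to 49 unadjusted genes without 1 library (35 with TMM scaling). Over the 20 genes of smallest p, 331 values under alternatives kept their direction and the 20 above turned. The side of the adjusted threshold could not separate the settings, because no gene passed it in any of them. Sides of the unadjusted threshold did change: Tap1, Psmb9, H2-D1 and Egr1 kept their direction with run as a term but no longer passed. The NNK difference in HDE minus saline lungs gave 1 adjusted call in run 1 alone, Cd274 at -0.99 (adjusted p = 0.038). The cause of these shifts was not tested. Same-numbered samples of the 2 groups correlated at -0.41 to 0.60 in their deviations, and 2 of 6 samples correlated best with their own number. Whether the numbers pair the mice cannot be told from these correlations. The replicate block gave 0 adjusted and 4 unadjusted genes. The 378 genes averaging under 87 counts were too shallow to enter the test.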

Other observations

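In antigen presentation, 2 single lungs of run 2 stood at an end of their group for many genes. The saline only library of run 2 lane 5 was the highest of its 6 for 10 of the 15 class I and 7 of the 10 class II genes tested, against 62 of all 388 genes. The saline + NNK library of run 2 lane 1 was the lowest of its 6 for 8 of 15 class I, 8 of 10 class II and 16 of 24 interferon-stimulated genes, against 152 of 388. It was also the library with the most counts, and the part of depth in these values was not tested. Without the first of these libraries the test between runs gave 31 unadjusted genes in place of 36, and without the second 18 (0 adjusted calls each time).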
